A study of Mus musculus with 6 samples.

Results

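The 10 genes described here encode the pumps, channels and scaffolds that move calcium in a heart muscle cell: Atp2a2, Pln, Sln, Ryr2, Trdn, Casq2, Hrc, Jph2, Cacna1c and Slc8a1. They were taken by symbol from a table of 18158 features, which lists all 10. The tissue was ventricle from 6 mice of the outbred CD1 stock, 3 months old. The RNA was sequenced in bulk; 3 mice had been injected with the vehicle, PBS, and 3 with paromomycin plus neomycin, a pair of aminoglycoside antibiotics called Paro/Neo here, at 150 mg/kg 2 times a day into the peritoneum for 14 days. No transgene or other allele is given for either group, each library is 1 mouse, and the design text asks how expression differs where the drugs suppress the activity of Meis1, a transcription factor. Levels are in TPM, which corrects reads for feature length and gives every library an equal sum. Whole ventricle holds many cell types, so fewer cardiomyocytes and less of a transcript per cardiomyocyte cannot be told apart.

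With each heartbeat the L-type calcium channel lets in a little calcium, which opens the ryanodine receptor of the sarcoplasmic reticulum, the internal calcium store, and releases far more. Relaxation follows when the SERCA pump returns calcium to the store and the sodium-calcium exchanger expels the rest across the cell membrane. Phospholamban and sarcolipin are small membrane peptides that bind the pump and hold it back, and calsequestrin binds calcium inside the store.

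None of the 10 genes passed the test between the groups, and their estimates ranged from narrow (Atp2a2, Trdn) to wide (Sln). The test was limma on log2(TPM + 1) over 12409 genes, those that reached 1 TPM in 3 or more libraries, with Benjamini-Hochberg adjustment over all of them and a threshold of 0.05. All 10 genes were above 1 TPM in every library. By limma 0 of 10 had an adjusted p under 0.05, against 0.137% of all tested genes (17 of 12409; 0.121% higher and 0.0161% lower). At an unadjusted p under 0.05 it was also 0 of 10, against 7.61% of all tested genes (3.24% higher and 4.37% lower). With limma-voom on inferred reads 0 of 10 passed as well, and 1, Ryr2, had an unadjusted p under 0.05. Their log2 changes ran from -0.40 for Ryr2 to 0.47 for Slc8a1, 7 above and 3 below 0, where 46.3% of tested genes were above 0. Their median was 0.17 against -0.017 for all tested genes. The groups did not overlap for 2 of 10, Ryr2 (lower) and Cacna1c (higher), where 14.3% of tested genes did not overlap (6.04% higher and 8.22% lower). An exact permutation test of 3 mice against 3 cannot go below p = 0.1, so none is given. The limma p-values set each change against the spread between these mice, moderated by the spread of all tested genes.

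Several values below turn on Paro/Neo replicate 1, which resembled the other libraries least (mean correlation 0.975, and 0.981 to 0.985 for each of the other 5). In it the gap to the vehicle mean was the widest of the 3 treated hearts for 9 of the 10 genes, all but Cacna1c. The share of all tested genes with this order was not counted, so it cannot be called particular to the 10. Inferred depth was 9556387 to 15969980 reads per library. Myl2, the light chain that marks ventricular muscle, was at 51694 to 69835 TPM, and the atrial light chain Myl7 was present at 25.7 to 221 TPM.

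**Figure D1:**
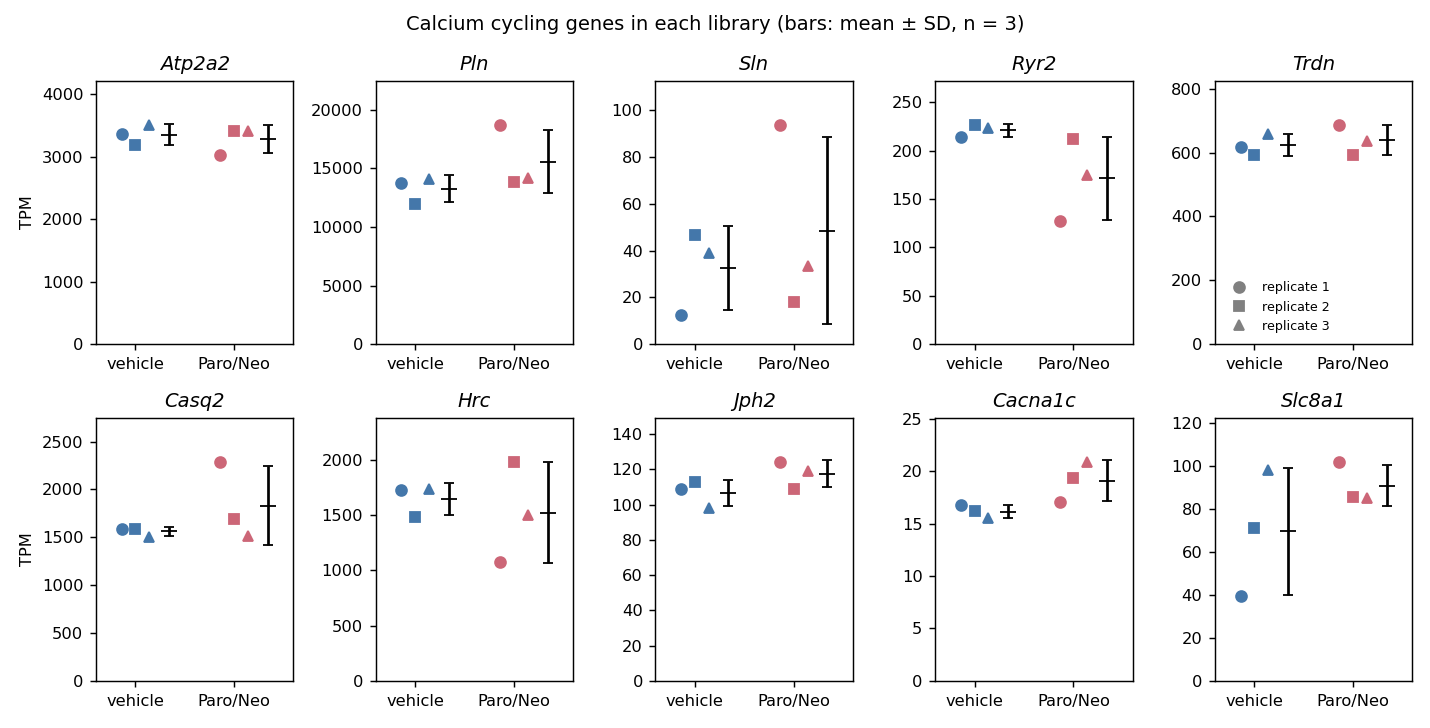
TPM (y axis, from 0, own scale per gene) of the 10 genes in the 3 vehicle libraries (blue) and 3 Paro/Neo libraries (red), with the symbol giving the replicate and the black bar the mean ± SD (n = 3). The groups are apart for Ryr2 and Cacna1c, and Paro/Neo replicate 1 is the treated value farthest from the vehicle mean for 9 of 10 genes.

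The genes lay at very unequal levels. Pln ranked 5 among all features by mean TPM and made up 1.19% to 1.87% of all TPM, and the 10 genes together 1.93% to 2.63%. Atp2a2 came next, then Hrc and Casq2, whose order differed between libraries (Hrc was above Casq2 in 3 of 6). Trdn, Ryr2 and Jph2 followed, with no overlap of ranges between Casq2 and Trdn, between Trdn and Ryr2 or between Ryr2 and Jph2. At the lower end neighbours overlapped: Jph2 was above Slc8a1 in 5 of 6 libraries, Slc8a1 above Sln in 6 of 6 and Sln above Cacna1c in 4 of 6.

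The pump gene Atp2a2 encodes SERCA2; its position is chromosome 5, 122453513 to 122502225 (build GRCm38 in GENCODE M21, as for all gene positions here). It was at 3368, 3178 and 3507 TPM in vehicle replicates 1 to 3 and at 3030.2, 3410.5 and 3404 TPM in Paro/Neo replicates 1 to 3. The groups overlapped and 2 of the 3 treated hearts lay within the vehicle range. The means were 3351 TPM ± 165 and 3282 TPM ± 218 (SD, n = 3 each). The log2 change was -0.031 ± 0.098 (SE; limma adjusted p 0.950). The 95% interval on the log2(TPM + 1) scale reached from a ratio of 0.837 to 1.14, so larger changes of the pump transcript in either direction lay outside it.

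Pln and Sln, the genes of phospholamban and sarcolipin, are shown by their reading frames, because both encode very small peptides that bind the same pump. Both sequences are from GENCODE M21 transcripts, 5′ to 3′, with the start and stop codons in capitals. The frame of Pln is 159 bases and that of Sln 96 bases, or 52 and 31 codons before the stop.
Pln: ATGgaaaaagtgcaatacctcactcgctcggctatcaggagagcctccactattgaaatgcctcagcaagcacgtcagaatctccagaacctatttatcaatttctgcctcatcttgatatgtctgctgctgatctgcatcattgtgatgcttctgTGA
Sln: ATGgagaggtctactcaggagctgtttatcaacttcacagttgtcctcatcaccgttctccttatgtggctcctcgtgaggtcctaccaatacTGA

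Pln, on chromosome 10 at 53337667 to 53345987, was at 13783, 11946 and 14122 TPM in vehicle and at 18720.4, 13837 and 14204 TPM in Paro/Neo hearts. Paro/Neo replicate 1 was the highest of the 6, and Paro/Neo replicate 2 lay within the vehicle range. The means were 13284 TPM ± 1171 and 15587 TPM ± 2720 (SD, n = 3 each). On the log2 scale the change was 0.22 ± 0.14 (SE; limma adjusted p 0.748). Without Paro/Neo replicate 1 the log2 change was 0.082. Within a library, Pln stood at 4.09, 3.76 and 4.03 times Atp2a2 in vehicle and at 6.18, 4.06 and 4.17 times in treated hearts. This ratio of inhibitor to pump transcript is free of the scaling between libraries, and it was above the vehicle range in Paro/Neo replicate 1 and, by little, in Paro/Neo replicate 3. The exons of Pln share 141 bases with Cep85l on the opposite strand, and the strand setting of the counting is not given in the sources used here.

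Sln, on chromosome 9 at 53850164 to 53854560, varied most of the 10 genes. It was at 12.4, 46.6 and 39.1 TPM in vehicle and at 93.7, 18.1 and 33.6 TPM in Paro/Neo hearts. Vehicle replicate 1 was the lowest and Paro/Neo replicate 1 the highest, a 7.52-fold span, and the groups overlapped from 18.1 to 46.6 TPM. Between groups the log2 change was 0.43 ± 0.63 (SE; limma adjusted p 0.871), and its interval ran from a ratio of 0.492 to 3.68. Its sign rested on single libraries: leaving out Paro/Neo replicate 1 gave -0.20, leaving out vehicle replicate 1 gave -0.14 and leaving out Paro/Neo replicate 2 gave 0.96. Only 53 to 394 inferred reads per library stood behind these values, against 172188 to 375581 for Pln.

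Sln is a gene of atrial muscle in the adult mouse heart, and its level followed that of atrial light chains from library to library. Of the 12408 other tested genes, the closest to Sln by the root mean square difference of centred log2(TPM + 1) over the 6 libraries was Myl4, at 0.21, and the next was Myl7, at 0.26, where the median of all genes was 0.93. Both encode light chains of atrial myosin. Myl4 was at 22.7, 114 and 105 TPM in vehicle and at 214, 47.2 and 65.8 TPM in Paro/Neo hearts. Myl7 was at 25.7, 112 and 125 TPM in vehicle and at 221, 61.8 and 97.9 TPM in Paro/Neo hearts. In both, as in Sln, vehicle replicate 1 was the lowest and Paro/Neo replicate 1 the highest of the 6. The other close genes were Snora70 and Mir133a-2, which rest on at most 7 reads per library, and Mybphl, a myosin-binding protein gene, at 0.47.

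The ratio of Sln to Myl4 was 0.372 to 0.549 and to Myl7 0.293 to 0.485 over the 6 libraries, spans of 1.48-fold and 1.66-fold, and its ratio to Mybphl was 8.67 to 19.7, a span of 2.28-fold. These genes were picked for their likeness to Sln in the same libraries, so the narrow spans follow from the choice. Not every atrial marker moved this way. Of 12 such markers 10 were tested, 5 with a log2 change above 0 and 5 below, and none passed. Nppa, the atrial natriuretic peptide, was at 622, 825 and 616 TPM in vehicle and at 239.6, 447.5 and 1067 TPM in Paro/Neo hearts, so it was lowest where Sln was highest. Sbk2 was at 3.39 to 5.25 TPM in vehicle and 1.84 to 2.03 TPM in treated hearts, and Bmp10 was at 0.12 TPM or below in all 6. The summed level of the 12 markers ran from 787 to 1170.3 TPM in vehicle and from 676 to 1347 TPM in treated hearts. Nppa made up most of this sum in every library but Paro/Neo replicate 1, where the sum was 839 TPM. The part of atrial tissue in the Sln values was not tested.

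**Figure D2:**
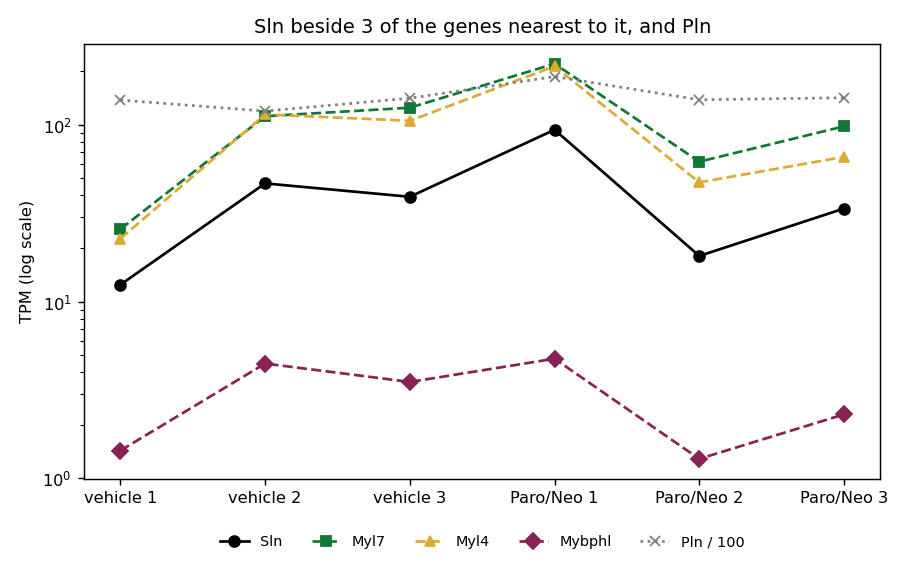
TPM on a log scale (y axis) in each of the 6 libraries (x axis) for Sln, for Myl7, Myl4 and Mybphl, which are among the 5 genes nearest to it, and for Pln divided by 100. Lines join the values of 1 gene and carry no order among mice; Sln, Myl7 and Myl4 are lowest in vehicle replicate 1 and highest in Paro/Neo replicate 1, and Pln does not share the low value.

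Ryr2 encodes the ryanodine receptor, the release channel of the store, on chromosome 13 at 11553102 to 12106945. It was at 214, 227 and 223 TPM in vehicle and at 127, 213 and 175 TPM in Paro/Neo hearts. All 3 treated hearts were below all 3 vehicle hearts, although Paro/Neo replicate 2 lay just under the vehicle range. The means were 221 TPM ± 6.74 and 172 TPM ± 42.8 (SD, n = 3 each), so the spread was far wider in the treated group. The log2 change was -0.40 ± 0.17 (SE; unadjusted p 0.0516, adjusted p 0.651 by limma), the smallest unadjusted p of the 10 genes, and it did not pass. Leaving out Paro/Neo replicate 1 gave -0.20 and leaving out Paro/Neo replicate 2 gave -0.56. It was below 0 in 19 of 19 alternatives, with adjusted p from 0.410 to 0.900. The unadjusted p was under 0.05 with limma-voom (0.0427), with the replicate block (0.0337), with the replicate block and GC correction (0.0307) and without Paro/Neo replicate 2 (0.00692), and it was 0.167 with array weights, where the log2 change was -0.19.

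Among partners of the receptor, Trdn, Casq2 and Hrc did not show the order of libraries seen in Ryr2. Fkbp1a, a receptor stabiliser, did, at 168, 194 and 178 TPM in vehicle and 158.6, 164.6 and 162.5 TPM in Paro/Neo hearts. Trdn, on chromosome 10 at 33080554 to 33476709, encodes triadin, which tethers calsequestrin to the receptor. It was at 617, 594 and 659 TPM in vehicle and at 686, 593 and 635 TPM in treated hearts, with overlapping groups. Its log2 change was 0.033 ± 0.097 (SE; limma adjusted p 0.944), and the interval from 0.876 to 1.19 was about as narrow as that of Atp2a2. Trdn stood at 2.89, 2.62 and 2.95 times Ryr2 in vehicle hearts and at 5.39, 2.79 and 3.63 times in treated ones.

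Casq2, on chromosome 3 at 102086415 to 102146514, encodes cardiac calsequestrin. It was at 1589.7, 1590.3 and 1503 TPM in vehicle, a spread of 3.22% of the mean, and at 2290.3, 1695 and 1509 TPM in Paro/Neo hearts. Paro/Neo replicate 1 again stood above the rest, and Paro/Neo replicate 3 fell within the vehicle range. For Casq2 the log2 change was 0.21 ± 0.15 (SE; limma adjusted p 0.765), and 0.035 without Paro/Neo replicate 1. The ratio of Casq2 to Ryr2 was 7.44, 7.01 and 6.73 in vehicle and 17.998, 7.97 and 8.62 in treated hearts. It was the only one of 7 ratios between members whose groups did not overlap. Groups were also apart for Ryr2 alone, and the share of ratios of other genes with groups apart was not counted. The gap can therefore not be called particular to this pair. The log2 difference of the ratio of Casq2 to Ryr2 was 0.61, and 0.23 without Paro/Neo replicate 1.

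Hrc, on chromosome 7 at 45335290 to 45338974, encodes a histidine-rich calcium-binding protein of the store that also binds triadin. It was at 1726, 1482 and 1735 TPM in vehicle and at 1072, 1983 and 1503 TPM in Paro/Neo hearts. The treated hearts held both the lowest and the highest of the 6 values. For Hrc the log2 change was -0.16 ± 0.21 (SE; limma adjusted p 0.854), and it turned to 0.071 without Paro/Neo replicate 1. Casq2 and Hrc, a pair of calcium-binding proteins of the store at like levels, thus lay on opposite sides of the vehicle range in that library.

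Cacna1c encodes the pore of the L-type calcium channel, on chromosome 6 at 118587240 to 119196418. It was at 16.7, 16.2 and 15.5 TPM in vehicle and at 17.03, 19.3 and 20.9 TPM in Paro/Neo hearts. All treated hearts were above all vehicle hearts, and here Paro/Neo replicate 1 was the one nearest to the vehicle range. The means were 16.1 TPM ± 0.62 and 19.1 TPM ± 1.95 (SD, n = 3 each). The log2 change was 0.23 ± 0.11 (SE; unadjusted p 0.0782, adjusted p 0.694 by limma). The log2 change was 0.16 to 0.30 over the 19 alternatives, with adjusted p from 0.373 to 0.907. Without Paro/Neo replicate 1 it was 0.30, with an interval from 0.082 to 0.52. The unadjusted p was under 0.05 in that fit, with quantile normalization, with array weights and with both GC corrections, and the adjusted p was not in any alternative.

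Jph2, on chromosome 2 at 163336242 to 163397993, encodes junctophilin, which holds the store membrane close to the cell membrane where Cacna1c and Ryr2 proteins face each other. It was at 109, 113 and 98.0 TPM in vehicle and at 124, 109 and 119 TPM in treated hearts. The groups overlapped, with Paro/Neo replicate 2 inside the vehicle range. The log2 change was 0.14 ± 0.10 (SE; limma adjusted p 0.762). It was 0.083 without vehicle replicate 3, 0.21 after GC correction, 0.24 after correction for GC and length, and 0.093 under array weights. Jph2 stood at 6.33 to 6.96 times Cacna1c in vehicle and at 5.64 to 7.30 times in treated hearts.

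Slc8a1 encodes the sodium-calcium exchanger, on chromosome 17 at 81373105 to 81738377. It was at 39.4, 71.4 and 98.3 TPM in vehicle and at 102, 85.7 and 85.2 TPM in Paro/Neo hearts. The vehicle hearts spanned 2.49-fold, the widest vehicle span among the 10 genes after Sln, while the treated hearts lay close together. The log2 change of 0.47 ± 0.29 (SE; limma adjusted p 0.733) was the largest of the 10. It rested on vehicle replicate 1: without that heart it was 0.11, and without vehicle replicate 3, the highest of the vehicle hearts, it was 0.76. These are not sparse values, with 6038 to 15465 inferred reads per library. The tested genes nearest to Slc8a1, looked up after its values were seen, were Tchhl1 (3.72, 8.47 and 8.96 TPM in vehicle, 8.32 to 11.97 TPM in treated hearts) and Tmem245 (12.4, 24.8 and 30.2 TPM in vehicle, 29.4 to 33.03 TPM in treated hearts), both lowest in vehicle replicate 1.

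**Figure D3:**
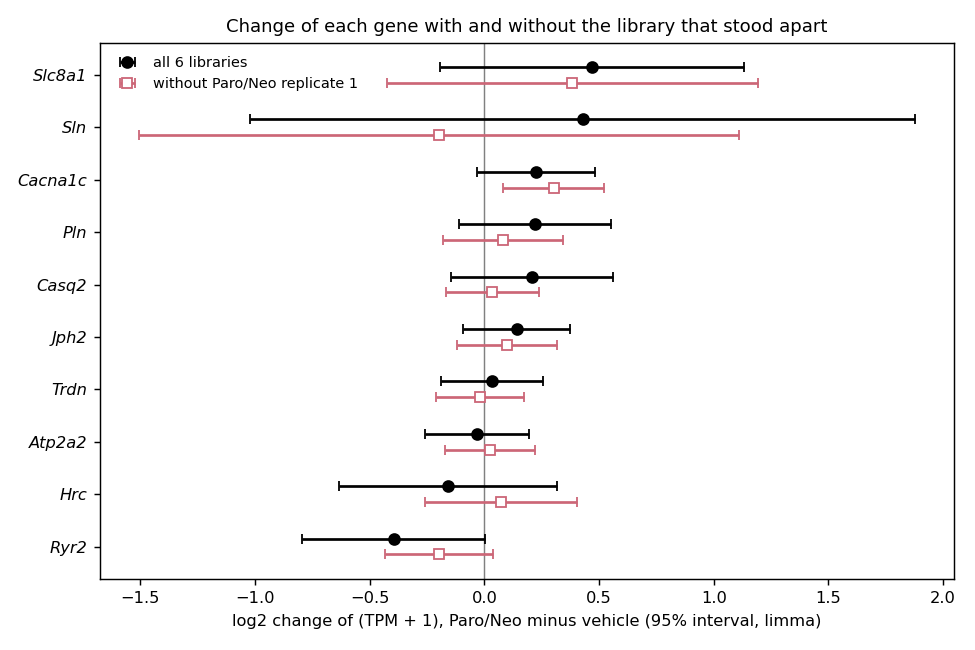
Log2 change of (TPM + 1), Paro/Neo minus vehicle (x axis), for each gene (y axis), with 95% intervals from limma, over all 6 libraries (black circles) and without Paro/Neo replicate 1 (open red squares). Over all 6 libraries every interval holds 0; without that library Sln, Hrc, Trdn and Atp2a2 change sign and the interval of Cacna1c lies above 0.

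Base composition differed between libraries and is given beside these values. In Paro/Neo replicate 1 genes rich in GC tended to read low: across tested genes the deviation from the gene mean had a Spearman coefficient of -0.33 with transcript GC content, and the other 5 libraries had -0.12 to 0.29. Genes are not independent replicates, and the part of base composition in the changes was not tested. Its median deviation from the vehicle mean was 0.17 in the lowest of 5 equal GC classes of genes and -0.17 in the highest. The members lay on both sides of this order in that library. Trdn (39.2% GC), Pln (43.4%), Slc8a1 (46.9%), Sln (47.0%) and Casq2 (47.4%) were at 0.14, 0.50, 0.64, 1.68 and 0.55. Hrc (54.7%) was at -0.62. In the other direction, Ryr2 (44.1% GC), in the same GC class as Pln, was at -0.79 and Atp2a2 (46.6%) at -0.14. Cacna1c (52.8%) was at 0.074, and Jph2, with the highest GC content of the 10 genes (61.98%), at 0.22. After a correction for GC content in each library the log2 change was -0.46 for Ryr2, 0.25 for Cacna1c, 0.15 for Pln and 0.20 for Casq2, and for Trdn it turned from 0.033 to -0.094.

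**Figure D4:**
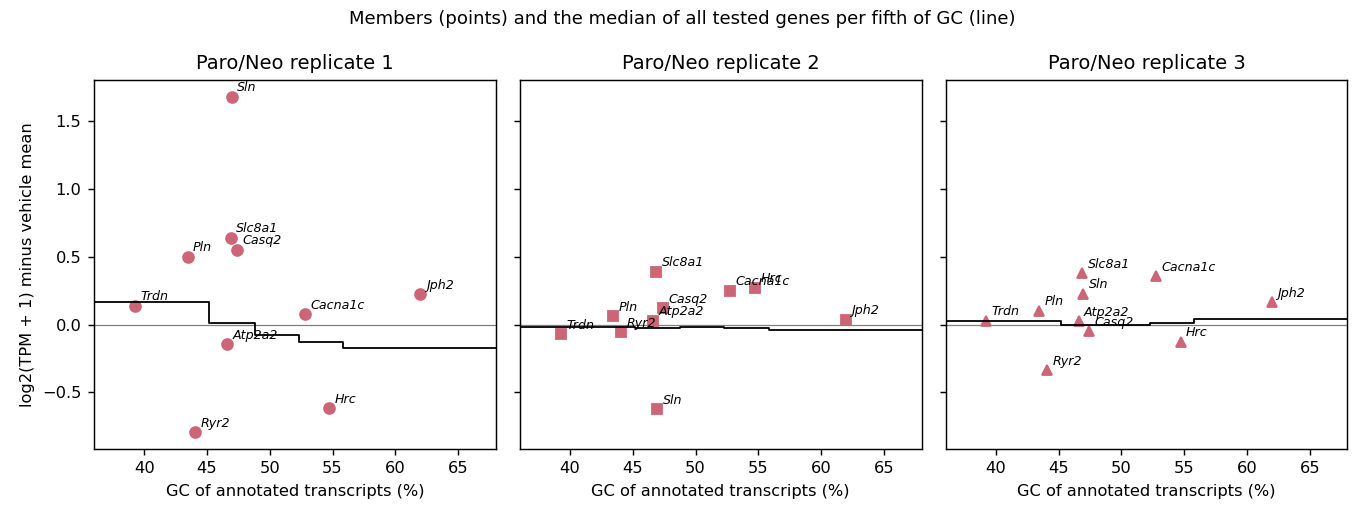
Difference of log2(TPM + 1) from the vehicle mean (y axis) against the GC content of annotated transcripts in percent (x axis) for the 10 genes in each Paro/Neo library, with the median of all tested genes in each of 5 GC classes as a black line. In replicate 1 the line falls from 0.17 to -0.17. Ryr2 and Pln, alike in GC, lie at -0.79 and 0.50, and Sln (47.0% GC) and Hrc (54.7% GC) at 1.68 and -0.62.

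Since the study asks about a transcription factor, the promoters of 3 members, picked after their values were seen, are shown. These members are Cacna1c, the one member higher in every treated heart, and Pln and Casq2, 2 abundant members that were highest in the same library. The promoters are from RefSeq on GRCm38.p6, where 7 of the 10 genes had an entry, not Atp2a2, Trdn or Sln. Each is the 250 bases before an annotated start, 5′ to 3′ on the gene's strand. Capitals mark matches on either strand to the motifs TGACAG (MEIS factors), AGATAA (for factors of the GATA family), TATAAA (for the TATA box), CACTTG (NKX2-5, which overlaps the E-box CANNTG), or to MEF2. Cacna1c has 3 annotated starts in that table, and the one at the upstream end of the gene is given, on the minus strand at chr6:119196410-119196659. Casq2 is on the plus strand at chr3:102086165-102086414 and Pln on the plus strand at chr10:53337436-53337685.
Cacna1c: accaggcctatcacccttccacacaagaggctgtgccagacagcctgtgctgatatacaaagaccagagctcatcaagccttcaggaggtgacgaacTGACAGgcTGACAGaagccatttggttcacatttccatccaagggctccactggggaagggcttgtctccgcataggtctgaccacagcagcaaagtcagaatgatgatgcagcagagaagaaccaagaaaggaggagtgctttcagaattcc
Casq2: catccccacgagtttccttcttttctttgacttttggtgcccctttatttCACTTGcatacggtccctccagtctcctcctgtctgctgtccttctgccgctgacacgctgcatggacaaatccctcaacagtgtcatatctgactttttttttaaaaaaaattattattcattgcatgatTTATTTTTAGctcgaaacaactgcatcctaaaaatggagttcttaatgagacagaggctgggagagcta
Pln: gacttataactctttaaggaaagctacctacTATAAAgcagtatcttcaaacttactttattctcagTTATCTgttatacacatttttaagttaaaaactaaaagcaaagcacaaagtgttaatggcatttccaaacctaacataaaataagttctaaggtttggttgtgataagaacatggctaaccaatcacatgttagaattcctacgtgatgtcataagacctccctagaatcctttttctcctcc

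The Cacna1c window holds TGACAG 2 times, with first bases 153 and 145 bases before the start and 2 bases between the copies. TGACAG on either strand was in 15.9% of 32851 such windows, and Cacna1c was the only 1 of the 7 members to hold it. The other 2 Cacna1c windows did not. Ryr2, the one member lower in every treated heart, had a window with none of the motifs searched. So did Hrc, whose groups overlapped, and neither window is shown. The Casq2 window holds a MEF2 match that ends 60 bases before the start, a motif present in 2.92% of windows, and CACTTG, present in 11.6%. The Pln window holds TATAAA, present in 12.4% of windows, at 219 bases before the start, and AGATAA on the other strand, present in 9.99%. AAGGTCA, the motif of estrogen-related receptors, was in the Jph2 windows and in 4.08% of all, and AGATAA was also in the Slc8a1 window. CATTCC, the MCAT motif, and the CArG box were in 0 of 7 and in 12.6% and 1.47% of all windows. A match in these letters is a description of the window and no evidence of binding.

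The other genes of calcium handling, in 9 lists by role, are described next; none passed the test. Of 102 tested genes in the lists, members included, 0 passed by limma (0 also by limma-voom on inferred reads) and 9 had an unadjusted p under 0.05, where 7.61% of all tested genes had one. The log2 change was above 0 in 49 and below 0 in 53, where 46.3% of all tested genes were above 0. Their median log2 change was -0.024 against -0.017 for all tested genes. The groups did not overlap for 19 of 102, or 18.6%, against 14.3% of all tested genes. Without Paro/Neo replicate 1 these shares were 24.5% and 23.5%. Leaving out another single library gave 28.4% to 32.4% for the lists and 23.1% to 26.4% for all tested genes. With fewer mice such shares cannot fall.

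Small regulators of the pump and enzymes around it made up the first list, with 7 of 12 tested genes above 0 and a median of 0.17. The smallest p belonged to 2310015B20Rik, given by RefSeq as a synonym of Mrln, the gene of myoregulin, a peptide that restrains the pump in skeletal muscle. It was at 5.79, 4.61 and 5.05 TPM in vehicle and at 2.51, 1.35 and 2.79 TPM in Paro/Neo hearts, a log2 change of -0.96 ± 0.20 (SE; unadjusted p 0.00129, adjusted p 0.208 by limma). The groups were well apart, but 4 to 21 inferred reads per library carried these values. Ppp1r3a, a glycogen-targeting subunit of protein phosphatase 1, was at 115 to 126 TPM in vehicle and at 137 to 179.8 TPM in treated hearts (limma adjusted p 0.590). Hax1, a partner of phospholamban, was at 7.55 to 11.5 TPM and 12.001 to 12.4 TPM, and Ppp1ca, a catalytic subunit of the same phosphatase, at 209.8 to 221 TPM and 215 to 306 TPM, vehicle first. The pump isoform Atp2a1 of skeletal muscle was at 0.0719 to 0.224 TPM and was not tested.

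Among release channels and their partners 6 of 18 tested genes were above 0, with a median of -0.083. Sri, the gene of sorcin, which binds the ryanodine receptor, was at 47.8, 59.4 and 42.97 TPM in vehicle and at 81.4, 63.4 and 69.5 TPM in treated hearts. The groups did not overlap, and the log2 change was 0.51 ± 0.15 (SE; unadjusted p 0.00851, adjusted p 0.448 by limma). Calm3, 1 of 3 calmodulin genes, was at 151 to 174 TPM in vehicle and at 135 to 145 TPM in treated hearts, without overlap. Tmem38b, a counter-ion channel of the store, was at 33.6 to 35.4 TPM in vehicle and at 57.4, 38.5 and 36.1 TPM in Paro/Neo replicates 1 to 3. In addition S100a1, an activator of the receptor and the pump, and Fkbp1a, a receptor stabiliser, both picked after their values were seen, had groups apart, at 2782 to 3031 TPM against 2447 to 2725 TPM and at 168 to 194 TPM against 159 to 165 TPM, with log2 changes of -0.16 and -0.15.

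In the list of calcium binding within the store 6 of 9 tested genes were above 0, with a median of 0.061, and besides Casq2 and Hrc the smallest p belonged to Sdf4 (43.6 to 45.3 TPM against 45.9 to 51.6 TPM) and to Casq1. Casq1, calsequestrin of skeletal muscle, was at 97.4, 28.8 and 38.2 TPM in vehicle and at 42.7, 71.7 and 71.8 TPM in treated hearts, with wide overlap. Of a list of 12 skeletal muscle markers that holds Casq1, 7 (Myh4, Myh1, Myh2, Tnnc2, Actn3, Pvalb and Atp2a1) were below 1 TPM in all 6 libraries. Of the others, Mylpf was at 2.18 to 3.77 TPM and Tnni2 at 2.08 to 4.81 TPM, and Tnnt3 and Myoz1 reached 1.599 and 1.26 TPM at most.

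The junction and T-tubule list had 7 of 10 tested genes above 0 and a median of 0.16, with 3 genes whose groups did not overlap, all higher, where 6.04% of all tested genes were higher without overlap. Tcap, the titin cap, which also lies at the T-tubule, was at 1922, 1384 and 1768 TPM in vehicle and at 2789, 2642 and 2616 TPM in Paro/Neo hearts, a log2 change of 0.68 ± 0.13 (SE; unadjusted p 0.00088, adjusted p 0.179 by limma). This was the smallest p of all 102 genes, its adjusted p ran from 0.103 to 0.402 over 19 alternatives, and the gap held in all 3 treated hearts. Lrrc10, a cardiac leucine-rich repeat protein, was at 75.8 to 90.5 TPM and 95.3 to 126 TPM, and Cmya5, which helps to place junctions at the Z-line, at 205 to 269.99 TPM and 272 to 330.1 TPM, vehicle first. Bin1, which shapes T-tubules, was at 7.71 to 8.53 TPM in vehicle and at 6.04, 5.72 and 7.74 TPM in treated hearts, where Paro/Neo replicate 3 just overlapped.

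Among channel subunits and regulators 3 of 9 tested genes were above 0, with a median of -0.17. Gem, a small GTPase that curbs the L-type channel, was at 8.71, 7.04 and 6.13 TPM in vehicle and at 4.16, 5.16 and 4.86 TPM in Paro/Neo hearts. The groups did not overlap, and the log2 change was -0.53 ± 0.15 (SE; unadjusted p 0.00812, adjusted p 0.440 by limma). Its relatives Rrad and Rem1 overlapped between groups, at 134 to 159 TPM against 123 to 147 TPM and at 7.87 to 10.2 TPM against 6.40 to 8.57 TPM.

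Extrusion and sodium pump genes were below 0 in 7 of 9 cases, with a median of -0.038, and in none were the groups apart. Besides Slc8a1 the smallest p belonged to Atp1b2, Fxyd1 and Atp2b4, with adjusted p from 0.745 to 0.831 by limma. Mitochondrial uptake genes were above 0 in 4 of 11 cases (median -0.077) and store-operated entry genes in 1 of 6 (median -0.11), and in neither list were any groups apart. Their smallest p belonged to Slc8b1, Vdac2, Letm1 and Mcur1, and to Stim2, Orai3, Tmem66 (Saraf) and Stim1, with adjusted p of 0.757 or more by limma.

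Adrenergic and kinase genes were above 0 in 13 of 19 cases, with a median of 0.029. Adcy6, an adenylyl cyclase that makes cyclic AMP downstream of beta-adrenergic receptors, was at 17.9, 19.8 and 18.2 TPM in vehicle and at 29.9, 27.2 and 23.9 TPM in Paro/Neo hearts. All treated hearts were above all vehicle hearts, with a log2 change of 0.51 ± 0.12 (SE; unadjusted p 0.00222, adjusted p 0.254 by limma). The phosphodiesterases that break cyclic AMP down went separate ways: Pde4b was at 14.9 to 16.5 TPM and 12.1 to 13.99 TPM, and Pde3a at 10.4 to 13.4 TPM and 13.5 to 17.4 TPM, vehicle first, both without overlap. Adra1a, an alpha-adrenergic receptor, was at 3.29 to 5.57 TPM in vehicle and at 5.42 to 8.20 TPM in treated hearts, with overlap.

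**Figure D5:**
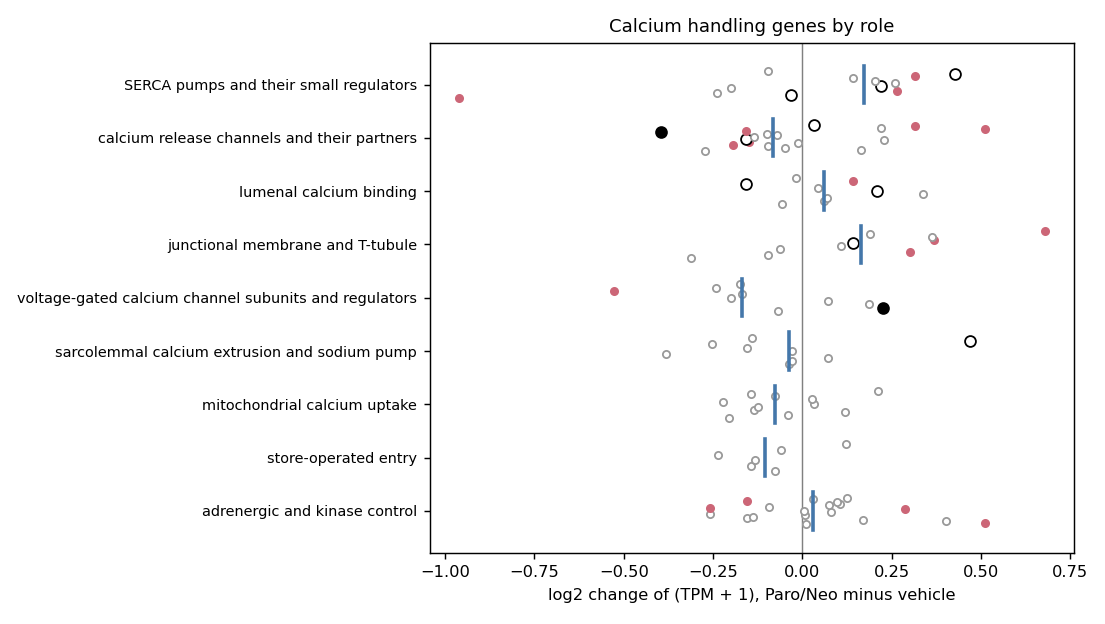
Log2 change of (TPM + 1), Paro/Neo minus vehicle (x axis), of the tested genes in each of 9 calcium handling lists (y axis); large black symbols are the 10 genes described here (Hrc is in both of its lists) and small symbols the others, each filled where the groups did not overlap and open where they did, with blue bars for list medians. Medians lie between -0.17 and 0.17, and the outlying filled points are 2310015B20Rik and Gem on the lower side and Tcap, Sri and Adcy6 on the higher side.

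Markers of other cells are given beside these values. Fibroblast markers were below 0 in 8 of 8 cases, with summed levels of 2506 to 2642 TPM in vehicle and 2227 to 2465 TPM in treated hearts, and endothelial markers in 6 of 7, at 552 to 633 TPM and 436 to 563 TPM; none passed. Ventricular cardiomyocyte markers were above 0 in 5 of 9 cases, at 122017 to 128694 TPM and 109295 to 143003 TPM, so their treated range enclosed the vehicle range. Of all tested genes 46.3% were above 0. Dcn made up most of the fibroblast sum, at 1726 to 1891 TPM, with a log2 change of -0.018. Paro/Neo replicate 1 held the lowest sum in each of these 3 lists. It held the highest sum of the 6 libraries for smooth muscle and pericyte markers (657 TPM) and for macrophage markers (585 TPM). Rgs5 alone made up 609.5 TPM of the first sum and Lyz2 441 TPM of the second. In that library Acta2, Myh11, Pdgfrb and Cspg4 were the lowest of the 6, and Tagln and Cnn1 were not. Of the macrophage markers only Lyz2 was highest there, and only Cd68 was lowest. Smooth muscle and pericyte markers were above 0 in 2 of 7 cases and macrophage markers in 6 of 7. The part of cell makeup in the values of the 10 genes was not tested.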

How the data were processed

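RNA from the ventricles of 6 mice, 3 per group, was sequenced as stranded mRNA libraries read at 76 bp, per the labels' protocols. The authors deposited 1 table of TPM values. Per the submitters' processing notes, the tools named are edgeR, Subread, featureCounts, STAR 2.5.3a and FastQC 0.11.5, with build mm10. For their roles, the annotation, the strand setting and the filter, the answer is not given in the sources used here. Titles gave the groups and replicate numbers; the descriptions number the Paro/Neo libraries 2, 3 and 4. The members and gene lists were chosen with earlier results of these data known.

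Values were taken as log2(TPM + 1), which understates changes of low genes, with a filter of 1 TPM reached in 3 or more libraries. The two-sided test was eBayes with trend, from limma 3.58.1 (R 4.3.3), Benjamini-Hochberg adjusted over all 12409 genes. TPM keeps no depth, but ratios between libraries of a feature's values are ratios of whole reads times a constant, and 17574 of 17574 features above 0 came out whole within 0.001 of a read. These inferred reads are lower estimates, since a factor shared by all 6 counts is not seen. They gave the depths of 9556387 to 15969980 reads. Scripts were tested on simulated data. The genes named are the 10 members, the 4 smallest p of each calcium list, the 5 genes most like the member with the largest SD, and markers; Tchhl1, Tmem245, S100a1, Fkbp1a, Sbk2, Bmp10 and the skeletal muscle markers were named after their values were seen. GC content and length came from GENCODE M21 transcripts, present for 99.2% of tested genes. Length was the median over a gene's annotated transcripts. For Ryr2 it was 1453.5 bases, far below its merged exon length of 28790 bases. Libraries with the same number in their titles did not deviate together across genes (correlations of -0.05, -0.04 and -0.12). No label says that the numbers pair the mice, and these correlations cannot exclude a pairing.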

Additional observations from a re-analysis of the deposited data

How the results depend on the processing

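The 10 genes were refitted under 19 alternatives: pseudocounts of 0.1 and 0.5, no filter, a mean of at least 5 TPM, median-ratio scaling, quantile normalization, a constant prior variance, array weights, GC and GC with length corrections, limma-voom on inferred reads, a replicate block with and without GC correction, and leaving out each library. In all 19, 0 of 10 members and 0 of 102 calcium genes passed. Ryr2 stayed below 0 and Cacna1c, Casq2, Jph2, Pln and Slc8a1 above 0 throughout. The sign turned for Atp2a2 (0.0054 with array weights; without single libraries -0.069 to 0.025), Hrc (0.069 with array weights; -0.37 to 0.071), Sln (-0.067 with array weights; -0.20 to 0.96) and Trdn (-0.031 with array weights, -0.094 with the GC correction, -0.10 with GC and length, -0.094 with the replicate block and GC correction; -0.021 to 0.084); the cause was not tested. All-gene calls, 17 in the fit reported, were 6 without a filter, 9 with a constant prior variance, 26 with array weights, 27 with the replicate block, 10 with the replicate block and GC correction, and 5 to 27 without single libraries. No library correlated best with its own number in the other group (0 of 6), and the replicate block changed no call among the members. The count of members whose groups do not overlap, an alternative chosen after seeing the data, was 2 to 4 without single libraries. The share of all tested genes rose to 23.1% to 26.4%. Groups that are apart with all 6 libraries stay apart when a library is left out. Ryr2 and Cacna1c therefore had to stay apart, and the count could not fall, so it is no measure of how firm these gaps are. Ratios between members also rested on single libraries, although the moves were within the wide spread between mice. The log2 difference turned for Sln to Atp2a2 (0.47; -0.12 without vehicle replicate 1, -0.22 without Paro/Neo replicate 1) and for Sln to Pln (0.22; -0.40 and -0.28). Without Paro/Neo replicate 1 it was 0.056 for Pln to Atp2a2 (0.25 with all), 0.18 for Trdn to Ryr2 (0.43), 0.23 for Casq2 to Ryr2 (0.61) and -0.22 for Jph2 to Cacna1c (-0.096). Without vehicle replicate 1 it was 0.14 for Slc8a1 to Atp2a2 (0.51). Among the members Sln had the fewest reads.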
